A study of Homo sapiens with 2 samples.

Results

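The homeobox genes described here are the members of the 4 HOX clusters, the TALE homeobox genes and a set of homeobox genes expressed in blood cells, and their contacts were taken from a TCF3::HLF HiChIP of HAL-01 leukemia cells. The list held 52 genes: 38 HOX genes, 9 TALE genes (MEIS1, MEIS2, MEIS3, PBX2, PBX3, PBX4, PKNOX1, PKNOX2 and TGIF1), and HLX, HHEX, SATB1, CUX1 and CUX2. An interaction was assigned to a gene when either of its 5-kb bins overlapped the gene body or the 10 kb around it (GENCODE release 44, hg38). By this rule 86 of the 49245 listed interactions belonged to the members, 0.175% of the list. HAL-01 is a leukemia cell line with t(17;19), the translocation that forms the TCF3::HLF fusion gene. The cells stably expressed Cas9GFP, carried a knockout of the wild-type TCF3 gene (wt-TCF3 KO) and came from a clonal line. HiChIP combines chromatin immunoprecipitation with proximity ligation, and here the antibody was directed against E2A, the product of TCF3. The design held this single condition with 2 replicates, which the authors merged before calling interactions. None of the values therefore has a replicate error, and no comparison with other cells was possible. The label as a leukemia line was not checked against marker genes, because the data hold contacts and no expression.

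HOX proteins are transcription factors that set positional identity in the embryo and act again in blood stem and progenitor cells, and their genes lie in clusters whose order follows their expression along the body axis. TALE proteins (MEIS, PBX and PKNOX) bind DNA together with HOX proteins and change which sites these recognize, and MEIS1, PBX3 and HOXA9 are known as a group that is highly expressed in leukemias with KMT2A rearrangement. HLF is a bZIP factor of the PAR family, which binds the palindrome TTACGTAA and close variants of it, and TCF3::HLF carries the DNA-binding part of HLF.

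Here a bin was said to hold the HLF motif if its sequence contained TTACGTAA or TTATGTAA without a mismatch, on the plus or the minus strand. Sites of the HOXA, HOXB and HOXC contacts are shown as examples of the matches at the ends of HOX contacts, where the far end is the bin outside the cluster. They are hg38 reference sequence, 5′ to 3′ on the strand named, with the motif in capitals.
HOXA far end in SNX10, chr7:26329532-26329561, plus strand: ttctctcactaTTATGTAAgtgatgagtct
HOXA cluster end in an exon of HOXA7, chr7:27153738-27153767, minus strand: ccagctgtgttTTATGTAAccgaaaataaa
HOXA far end in HIBADH, first site, chr7:27532372-27532401, plus strand: aaaagagacacTTATGTAAatgttaaacaa
HOXA far end in HIBADH, next site, chr7:27532560-27532589, plus strand: taatacaactgTTATGTAAtcaggctttca
HOXB far end in SP2, chr17:47917479-47917508, plus strand: ttcatagaattTTATGTAAagtaagaaaat
HOXC cluster end in an intron of HOXC10, chr12:53989131-53989160, plus strand: tcgagggatacTTATGTAAataatgttatt
HOXC far end outside protein-coding genes, chr12:54708873-54708902, plus strand: ttttcttcaagTTATGTAAtacccaaacta

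The second set belongs to the strongest contacts of SATB1, PBX3, HHEX and HLX. At SATB1 both ends held the motif, at PBX3 only the first of the bins did, and at HHEX and HLX only the far end did. HLX is included because its far end held the palindromic form.
SATB1 far end in TBC1D5, with a pair of adjacent matches, chr3:18216567-18216596, minus strand: cTTATGTAActTTATGTAAagttttaaaaa
SATB1 far end in TBC1D5, later match, chr3:18218518-18218547, plus strand: ttaacaatatgTTATGTAAcctaatatatc
SATB1 intron, first site, chr3:18382235-18382264, minus strand: tttacatctctTTATGTAAttacctaaaga
SATB1 intron, next site, chr3:18382264-18382293, minus strand: tttacatctctTTATGTAAttcttcatttt
PBX3 intron, first site, chr9:125822124-125822153, plus strand: gctatgaagaaTTATGTAAtttttcctaaa
PBX3 intron, next site, chr9:125824802-125824831, plus strand: cgcagctgttgTTATGTAAcaataacgata
HHEX far end at the start of EXOC6, chr10:92849686-92849715, plus strand: gccagttcaagTTATGTAAatacaccttgc
HLX far end, first site, chr1:221410881-221410910, plus strand: agagaaaaccaTTACGTAActctaagtatc
HLX far end, next site, chr1:221411870-221411899, plus strand: caaccctgtagTTACGTAActgttgggttt

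An interaction reached 29 of the 52 members (55.8%; Wilson 95% interval, 42.3 to 68.4%), against 64.5% of the 19970 protein-coding genes of chromosomes 1 to 22 and X under the same rule. With windows of 10 kb around all annotated transcript starts, of which long genes have more, 26 members (50%; 36.9 to 63.1%) had an interaction, against 55.1% of all genes. With the annotated gene start alone, a setting added after seeing the data in which length does not enter, it was 21 (40.4%; 28.2 to 53.9%), against 42.9%. The background value lies inside the interval in each case. The groups differed in number. Of the 38 HOX genes 16 were reached (42.1%; 27.9 to 57.8%), and of the 14 other members 13 (92.9%; 68.5 to 98.7%), so that the 64.5% of all genes lies between the intervals. Around all transcript starts the counts were 14 of 38 (36.8%, interval 23.4 to 52.7%) and 12 of 14 (85.7%, interval 60.1 to 96.0%), again on either side of the 55.1%. Around the gene start alone they were 13 of 38 (34.2%, interval 21.2 to 50.1%) and 8 of 14 (57.1%, interval 32.6 to 78.6%), and both intervals included the 42.9%. All these intervals count genes as independent. Neighboring HOX genes share bins, and the 16 reached HOX genes stand for 5 contacts. The HOX intervals are therefore too narrow, and whether the groups differ beyond this was not tested. HOX genes are short, and among the 30 of at most 10 kb the count was 11 (36.7%; 21.9 to 54.5%), against 42.8% of all genes of that length. At least 10 interactions were found at 3 members (5.77%; 1.98 to 15.6%), against 10.1% of all genes. These 3 were PBX3 with 34, SATB1 with 12 and HHEX with 10, and together they held 56 of the 86 interactions (65.1%).

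**Figure D1:**
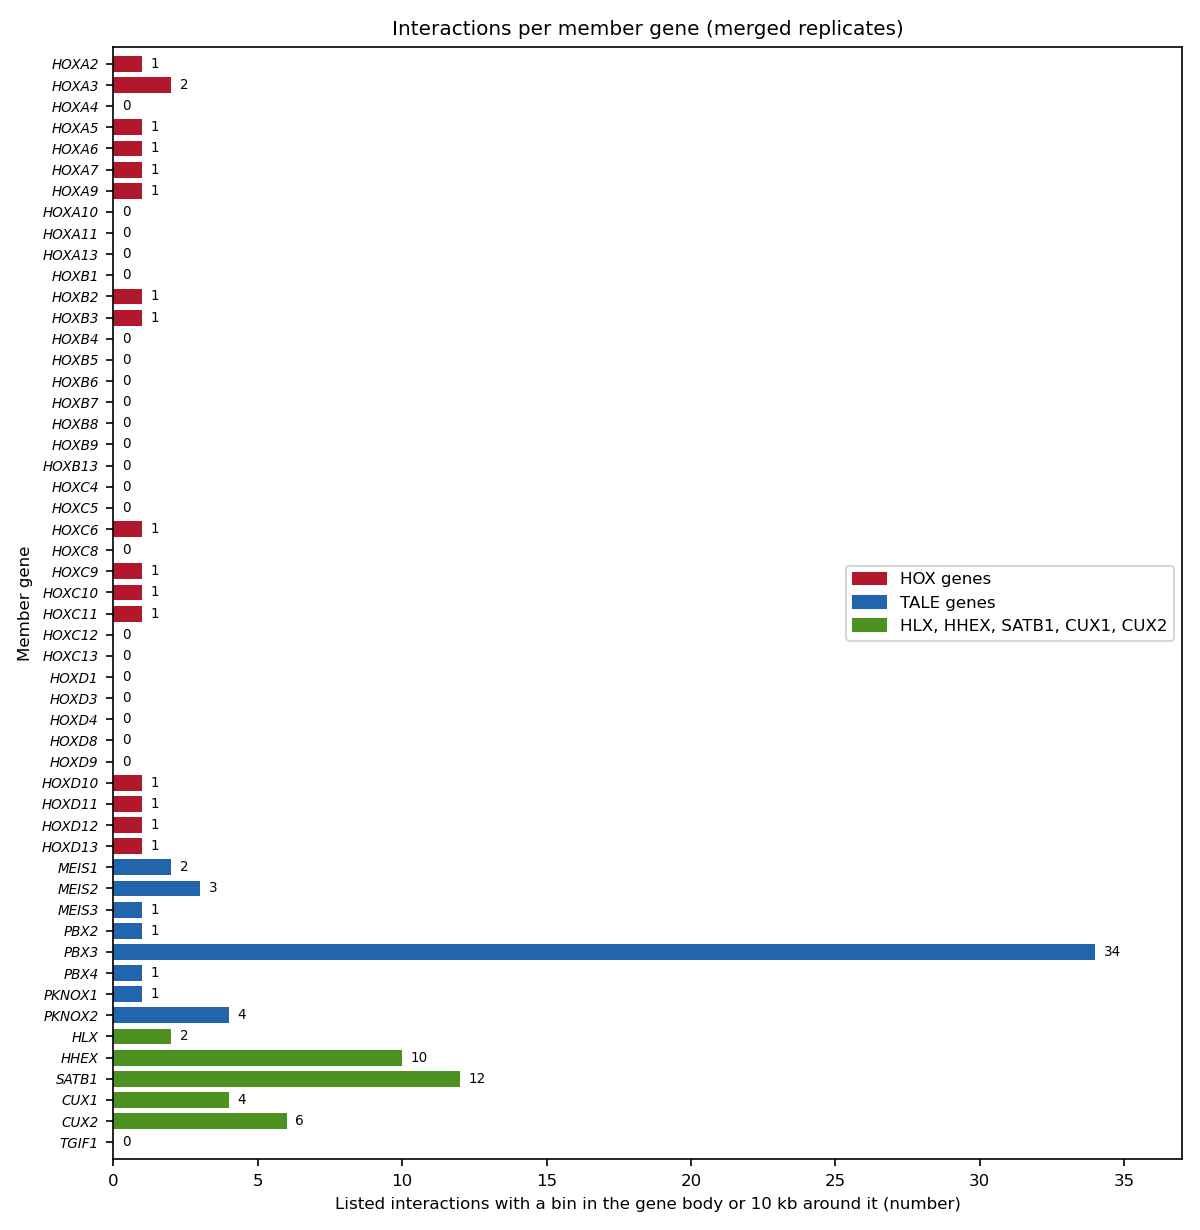
Number of listed interactions at each of the 52 member genes, in the list of the merged replicates, with bars colored by group. PBX3 reaches 34, SATB1 12 and HHEX 10, no HOX gene has more than 2, and 23 members have 0.

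The contact counts and distances of the members were close to those of the whole list. The contact count, which is the number of read pairs that join the bins, had a median of 24 (95% interval from order statistics, 22 to 26; range, 12 to 74), and the median of the whole list was 24 as well. The median distance was 247.5 kb (190 to 355 kb) against 255 kb, and 9.3% of the members' interactions spanned more than 1 Mb, against 13.7%. A total of 83 of the 86 (96.5%) were single bin pairs with no merged neighbor, against 92.3% of the list. The contact counts of the 86 interactions add up to 2238 of 1268490 in the whole list, which is the depth behind these values and covers called interactions only. For a contact count of 24 the exact Poisson 95% interval runs from 15.4 to 35.7. It covers counting error at most and takes read pairs as independent. Duplicate pairs had been kept, so this and the other Poisson intervals given here may be too narrow. Only 3 of the 86 reached at least 2 times the median of interactions at a similar distance.

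**Figure D2:**
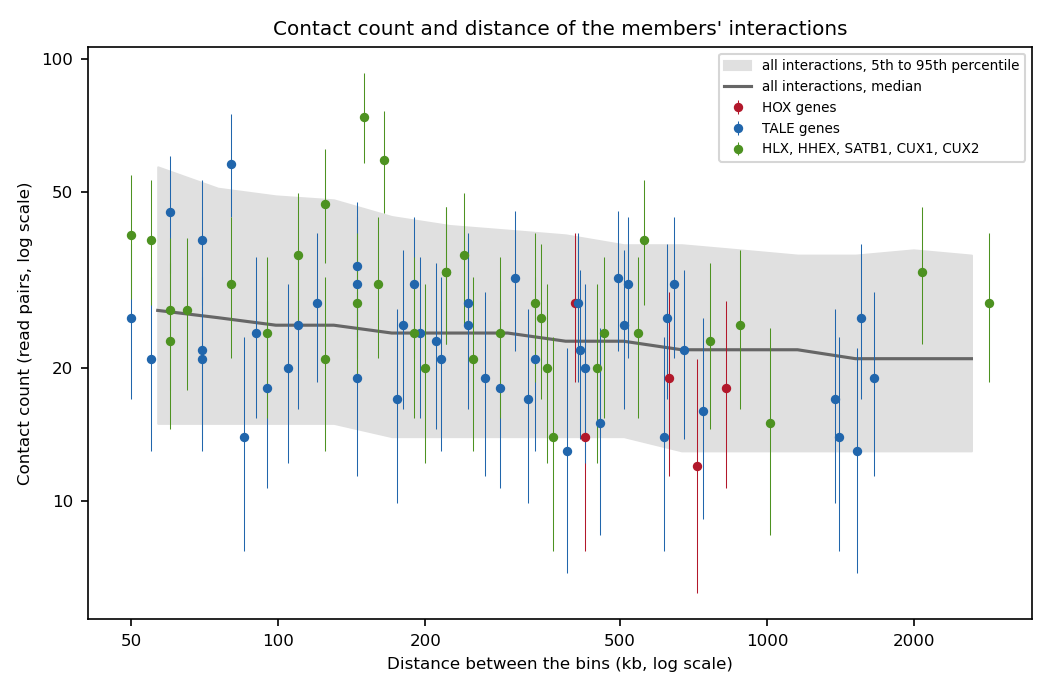
Contact count against the distance between the bins, both on log scales, for the 86 interactions of the members. Bars are Poisson 95% intervals, the line is the median of all 49245 interactions in 15 distance classes and the band their 5th to 95th percentile. The points scatter around the line, and the strongest contacts of HHEX (74), SATB1 (59) and PBX3 (58) lie above the band.

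The HOX clusters held few listed contacts. Only 5 interactions reached the 38 genes, 2 at HOXA and 1 each at HOXB, HOXC and HOXD, with contact counts of 12 to 28, 4 of them below the median of the list. All 5 left their cluster, over 405 to 825 kb, and all were single bin pairs. Neighboring HOX genes share bins, so the 16 genes counted as reached stand for 5 contacts. Of the 111 bins in the windows of the HOX genes 5 were anchors (4.5%; Wilson 95% interval, 1.94 to 10.1%), against 9.19% of all bins of the genome, a value inside the interval. In the windows of the TALE genes it was 12.0% (8.5 to 16.5%), and in those of HLX, HHEX, SATB1, CUX1 and CUX2 12.1% (8.36 to 17.3%). Each of these values rests on a single gene: without PBX3 it was 6.44% in the TALE windows (3.8 to 10.7%), and without SATB1 7.18% in the others (4.25 to 11.9%), as alternatives chosen after seeing the data.

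The bins of the HOX windows also differed in sequence. The HLF motif occurred in 8 of the 111 bins (7.21%; 3.7 to 13.6%), against 24.3% in the TALE windows, 16.5% in those of the remaining members and 30.6% of all bins. The G+C content ran the other way, at 51.1% in the HOX windows, 47.3% in those of the remaining members, 43.8% in the TALE windows and 40.9% in the genome. Its part in the number of motifs or anchors was not tested.

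The HOXA cluster lies on chromosome 7 from 27100354 to 27200091. Its stronger contact joined chr7:27150001-27155000, which holds transcript starts of HOXA3 and HOXA6 and an exon of HOXA7, with chr7:26325001-26330000 in SNX10, the gene of a sorting nexin. The distance was 825 kb, the contact count 18 (Poisson 95% interval, 10.7 to 28.4) and the q-value 1.23e-05. Both ends held an HLF motif. HOXA5 and HOXA9 were counted as reached through this bin alone, which lies 6.3 kb upstream of HOXA5 and 7.4 kb past the end of HOXA9. The other contact joined chr7:27105001-27110000, in an exon of HOXA3 and 2.3 kb upstream of HOXA2, with chr7:27530001-27535000 in HIBADH, which encodes an enzyme of valine breakdown. Its contact count was 14 (7.7 to 23.5) at 425 kb, with a q-value of 0.00372. HOXA4, HOXA10, HOXA11 and HOXA13 had no listed interaction.

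At HOXB, on chromosome 17, the bin chr17:48545001-48550000 at the start of HOXB2 and in an exon of HOXB3 contacted chr17:47915001-47920000 in SP2, the gene of a zinc-finger transcription factor. The distance was 630 kb and the contact count 19 (11.4 to 29.7), with a q-value of 1.09e-05. HOXB1, HOXB4, HOXB5, HOXB6, HOXB7, HOXB8, HOXB9 and HOXB13 had none, and the nearest anchor to HOXB13 lay 174.8 kb away. The contact of HOXC had the lowest contact count of all 86, with 12 read pairs (Poisson 95% interval, 6.2 to 21.0; q-value 0.0079). It joined chr12:53985001-53990000 at the start of HOXC10 with chr12:54705001-54710000, 720 kb away and 56.5 kb from the nearest gene start, that of DCD. The windows of HOXC6, HOXC9 and HOXC11 include the same bin. HOXC4, HOXC5, HOXC8, HOXC12 and HOXC13 had none.

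At HOXD, the bin chr2:176095001-176100000 holds the start of HOXD12 and an exon of HOXD13, and lies within 10 kb of HOXD10 and HOXD11. It contacted chr2:175690001-175695000, 405 kb away in a stretch without protein-coding genes, whose nearest gene start is that of LNPK at 307.8 kb. Its 28 read pairs (18.6 to 40.5) and q-value of 5.36e-14 were the strongest among the HOX clusters. The interval overlaps those of all the other HOX contacts. HOXD1, HOXD3, HOXD4, HOXD8 and HOXD9 had none.

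**Figure D3:**
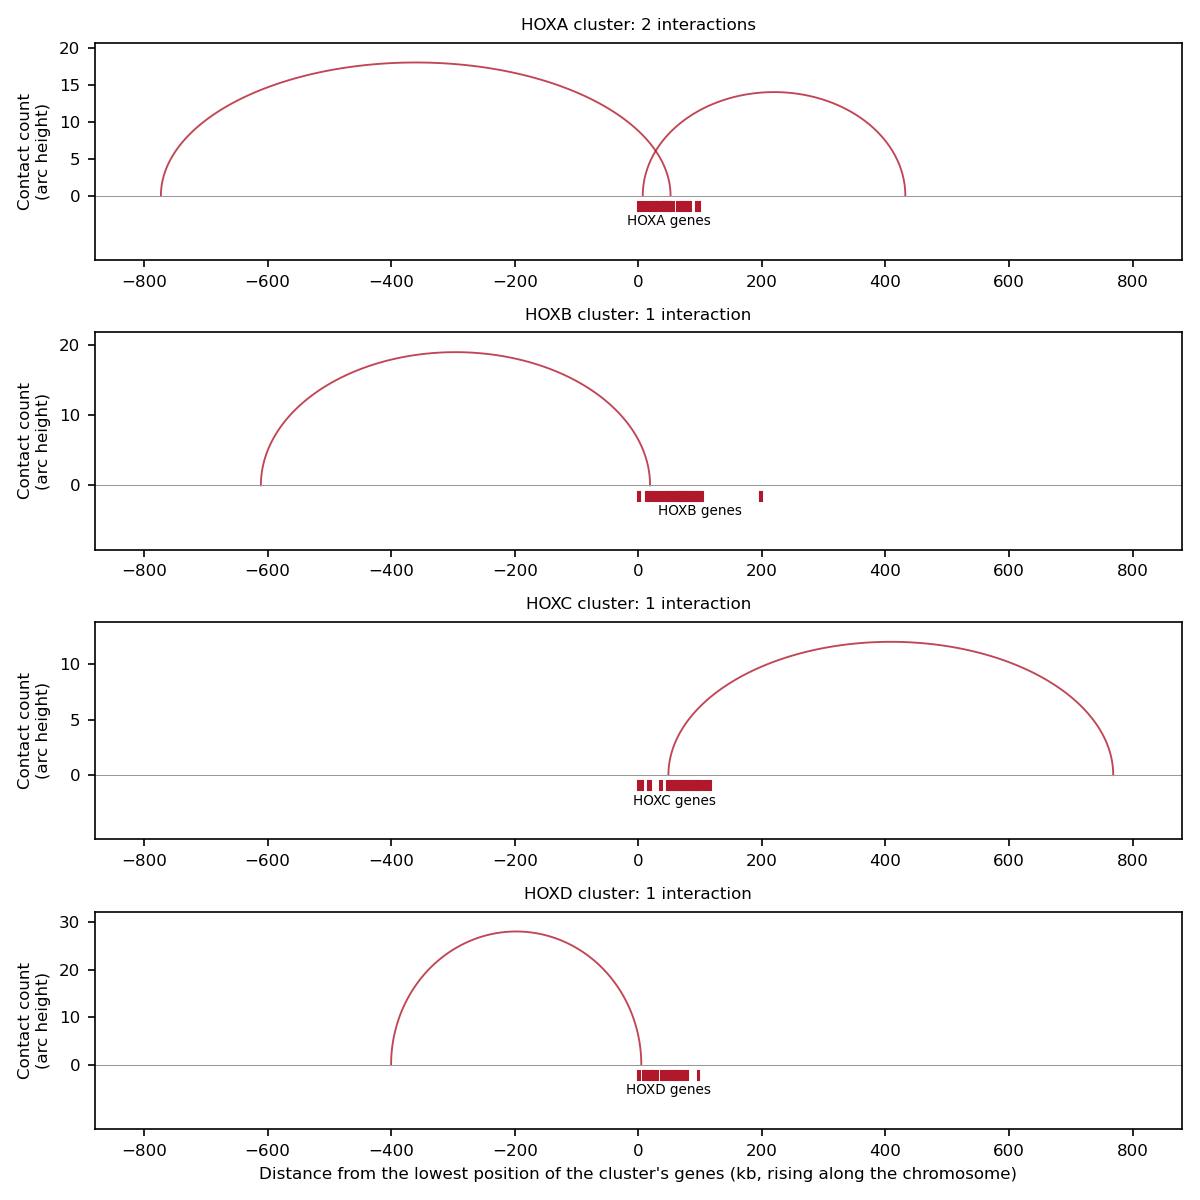
Interactions of the HOXA, HOXB, HOXC and HOXD clusters, drawn as arcs whose height is the contact count (read pairs), against the distance in kb from the lowest position of the cluster's genes. Filled boxes are the HOX genes. Each of the 5 arcs has an end in the genes and the other end outside the cluster, 405 to 825 kb away.

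No interaction was listed with both ends inside a HOX cluster. The windows of the 4 clusters hold 722 pairs of bins at least 50 kb apart, the smallest distance that was called. At distances up to 220 kb, the widest found in a cluster, 0.11% of all bin pairs of the genome were listed, which corresponds to 0.797 interactions among 722 pairs. The absence of internal contacts was thus not distinguishable from the background, and contacts under 50 kb were outside the range of the list.

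In each of the 5 HOX contacts the far end was used more often than the HOX end. Each HOX bin took part in 1 interaction, while the bins at the other end took part in 6 (SNX10), 7 (HIBADH), 5 (SP2), 4 (HOXC) and 2 (HOXD). At least 5 interactions were thus found at 3 of the 5 far ends, against 38.8% over both ends of all listed interactions. With 5 contacts, a difference from the list cannot be read from this. All 5 far ends held an HLF motif (Wilson 95% interval, 56.6 to 100%) and 2 of the 5 HOX ends did. Over both ends of all listed interactions, the share with a motif was 41.5%.

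Among the TALE genes PBX3 had the most contacts. It held 34 interactions, which ranked 208 among the 19970 genes by number, with contact counts from 14 to 58 (median 25) and distances from 50 to 1560 kb. PBX3 is 220 kb long, and per 100 kb of window its 14.2 interactions ranked 1496. Of its 49 window bins 17 were anchors (34.7%).

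A group of bins in the gene body carried most of these contacts. The bins chr9:125820001-125825000, in an intron and with 2 HLF motifs, and chr9:125900001-125905000, in an intron and without a motif, took part in 8 interactions each. They were joined with each other by the strongest contact of the gene, whose contact count was 58 (Poisson 95% interval, 44 to 75.0) at 80 kb (P value 1.51e-30). This was 2.15 times the median at that distance. The bins starting at 125825001 and 125945001 took part in 5 each and that at 125950001 in 4. In all, 10 interactions stayed within the window of the gene, with contact counts from 18 to 58.

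Contacts with transcript starts of PBX3 were a minority. Only 6 interactions lay within 10 kb of an annotated start, and 1 had a start in its bin: chr9:125840001-125845000, the start of an internal transcript, contacted the bin at 125900001 with a contact count of 45 (32.8 to 60.2) at 60 kb. The annotated gene starts at 125747345, and the nearest anchor to it began at 125755001, in an intron.

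The remaining 24 contacts of PBX3 ran to both sides. MAPKAP1, the adjacent gene, which encodes a subunit of the mTORC2 kinase complex, received 9, with contact counts from 17 to 31 at 175 to 410 kb. GAPVD1, a regulator of endocytic Rab proteins, received 4 (contact counts 14 to 31, 510 to 645 kb). Bins outside protein-coding genes past the end of PBX3 received 8 (17 to 34, 70 to 495 kb). MVB12B, an ESCRT-I subunit, received 1 at its start with a contact count of 20, and GARNL3 received 1 with a contact count of 26 at 1560 kb. The last contact, with a contact count of 31 at 520 kb, ended between GAPVD1 and MAPKAP1. The merged group with the largest sumCC at this gene (60, the contact counts added up over neighboring significant bin pairs) joined the bins at 125900001 and 126045001. Only 3 of the 24 far ends held an HLF motif (12.5%; 4.34 to 31%), against 6 of the 24 ends in PBX3 (25%; 12.0 to 44.9%). Over both ends of all listed interactions it was 41.5%. The 24 ends in PBX3 were only 10 bins and the far ends 22 bins, so intervals that count contacts as independent are too narrow. The bin in MAPKAP1 starting at 125565001, without a motif, reached PBX3 3 times and took part in 9 interactions in all.

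**Figure D4:**
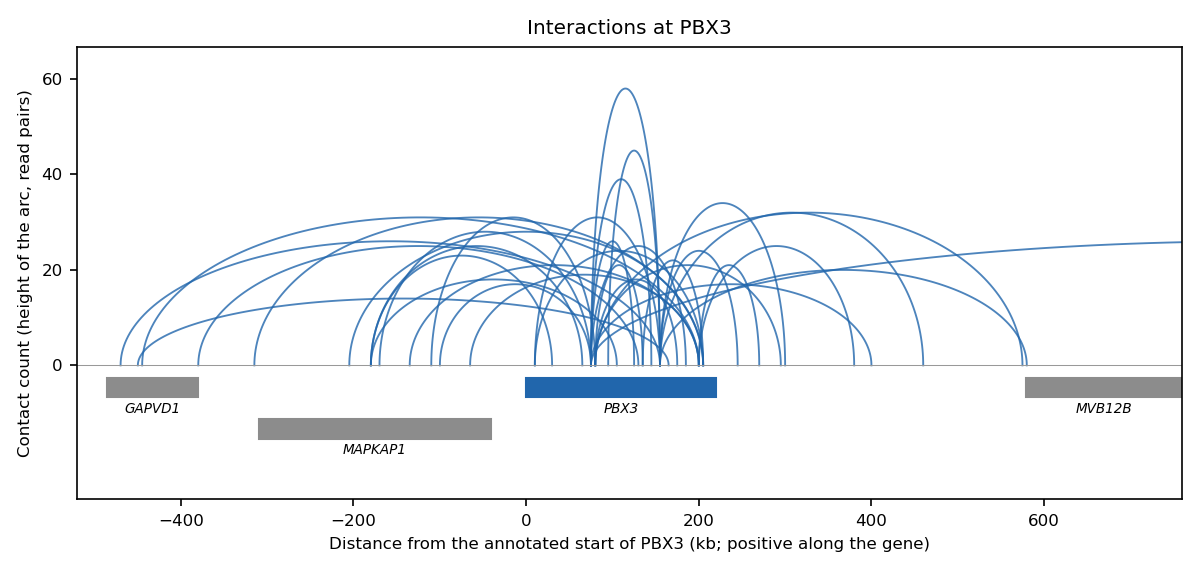
Interactions at PBX3, drawn as arcs whose height is the contact count (read pairs), against the distance in kb from the annotated gene start. Boxes are PBX3, GAPVD1, MAPKAP1 and part of MVB12B. Many arcs meet in a few places in the gene body, the highest (58) joins a pair of these places, and the arc cut at the right edge runs to GARNL3 at 1560 kb.

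The other TALE genes had few contacts. PKNOX2, a homeobox partner related to the MEIS family, had 4 interactions with contact counts from 14 to 28 at 85 to 1655 kb. The strongest joined an exon bin, chr11:125235001-125240000, with chr11:125115001-125120000, 120 kb away, nearest to TMEM218 and with 2 HLF motifs. All 4 had a motif in at least 1 bin. The far end at TMEM218 reached the gene 2 times.

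MEIS2 and MEIS1 encode the HOX cofactors with the longest genes of the MEIS family. MEIS2, with a length of 212 kb, had 3 interactions with contact counts of only 13 to 14 at 390 to 1525 kb. The strongest joined a start bin, chr15:37025001-37030000, with chr15:35625001-35630000, 1400 kb away and nearest to DPH6 (contact count 14; 7.7 to 23.5; q-value 0.0035). MEIS1, with a length of 140 kb, had 2. Its intron bin chr2:66535001-66540000 contacted chr2:66640001-66645000, past the end of the gene and with 2 motifs, at 105 kb with a contact count of 20 (12.2 to 30.9). The bin chr2:66455001-66460000, in an intron and with a motif, contacted a bin nearest to C1D at 1375 kb with a contact count of 17 (9.9 to 27.2). MEIS1 and MEIS2 thus lay below PBX3 in number, although MEIS2 is nearly as long.

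MEIS3, PBX2, PBX4 and PKNOX1 had 1 interaction each, with contact counts of 15 to 22. In 3 of them the bin lay beside the member and in or at another gene. The bin of MEIS3, chr19:47425001-47430000, overlaps SLC8A2 and contacted chr19:47280001-47285000 near C5AR1 (contact count 19, 145 kb). The bin of PBX2, chr6:32175001-32180000, holds the starts of AGPAT1 and RNF5 and contacted chr6:31500001-31505000 in MICB (contact count 22, 675 kb). The bin of PBX4, chr19:19620001-19625000, overlaps LPAR2 and contacted chr19:20035001-20040000 at the start of ZNF682 (contact count 22, 415 kb). The bin of PKNOX1, chr21:43010001-43015000, lies in an exon and contacted chr21:42555001-42560000 in SLC37A1 (contact count 15, 455 kb). The far ends at C5AR1 and ZNF682 took part in 10 interactions each, and each held a motif. TGIF1, a TALE repressor, had no listed interaction, and its nearest anchor lay 146.6 kb away.

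HHEX, a homeobox repressor needed for early blood and lymphoid development, had the strongest single contact of all members. All 10 of its interactions used the same bin, chr10:92695001-92700000, which holds the last part of the gene (92689955 to 92695647, plus strand) and the sequence after it. This bin held no HLF motif and shared rank 871 among all anchor bins by number of interactions. It was the only member bin with at least 10. By number, the 10 interactions of HHEX ranked 1765 among the 19970 genes. HHEX is only 5.69 kb long, and with 38.9 interactions per 100 kb of window, all from this bin, it ranked 180.

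The top contact of HHEX joined this bin with chr10:92845001-92850000 at the start of EXOC6, a subunit of the exocyst complex, 150 kb away. Its contact count was 74 (Poisson 95% interval, 58.1 to 92.9), its sumCC 144 and its P value 5.48e-50, and it ranked 284 in the whole list by contact count. It was 3.08 times the median, 24, of the 1481 interactions at a similar distance. As it was picked as the largest contact of all members, a value above that median follows from the choice. EXOC6 received 5 of the 10 contacts, with contact counts from 20 to 74 at 150 to 250 kb. KIF11, a mitotic kinesin, received 2 (contact counts 24 and 36), BTAF1, an ATPase that acts on the TATA-binding protein, 1 at 765 kb (contact count 23), and 2 ended between HHEX and EXOC6. The nearer of these, at 55 kb, had 39 read pairs and a sumCC of 74. Of the 10 far ends 5 held a motif, and each took part in 1 or 2 interactions. The bins of the top pair shared 11 31-mers, and the largest number shared by the bins of any member pair was 74.

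SATB1, a chromatin organizer with a role in lymphocyte development, showed the opposite arrangement. Its 12 interactions used 12 different bins of its window, each in 1 interaction, so that 48.0% of the 25 window bins were anchors. The far ends were 8 bins that took part in 3 to 16 interactions (median over the contacts, 8), and 10 of the 12 contacts had an HLF motif there (83.3%; Wilson 95% interval, 55.2 to 95.3%), against 5 of 12 at the SATB1 end (41.7%; 19.3 to 68.0%). At HHEX the corresponding counts were 5 of 10 and 0 of 10. The intervals of SATB1 overlap each other. They count each contact as independent, though the 12 contacts had only 8 far bins, so the far-end interval is too narrow. Over both ends of all listed interactions, the share with a motif was 41.5%.

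The strongest contact of SATB1 joined its intron bin chr3:18380001-18385000, with 2 motifs, and chr3:18215001-18220000 in TBC1D5, the gene of a Rab GTPase-activating protein, with 3 motifs. The contact count was 59 (44.9 to 76.1) at 165 kb, 2.46 times the median at a similar distance, with a P value of 5.84e-37. The other contact counts ran from 14 to 31. The bin chr3:18740001-18745000, upstream of SATB1 and with 2 motifs, took part in 16 interactions and reached SATB1 3 times, with contact counts of 20 to 28. The neighboring bins starting at 17975001 and 17980001 in TBC1D5 reached it 3 times together. The annotated body of TBC1D5 overlaps SATB1, so that bins in SATB1 belong to both genes.

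**Figure D5:**
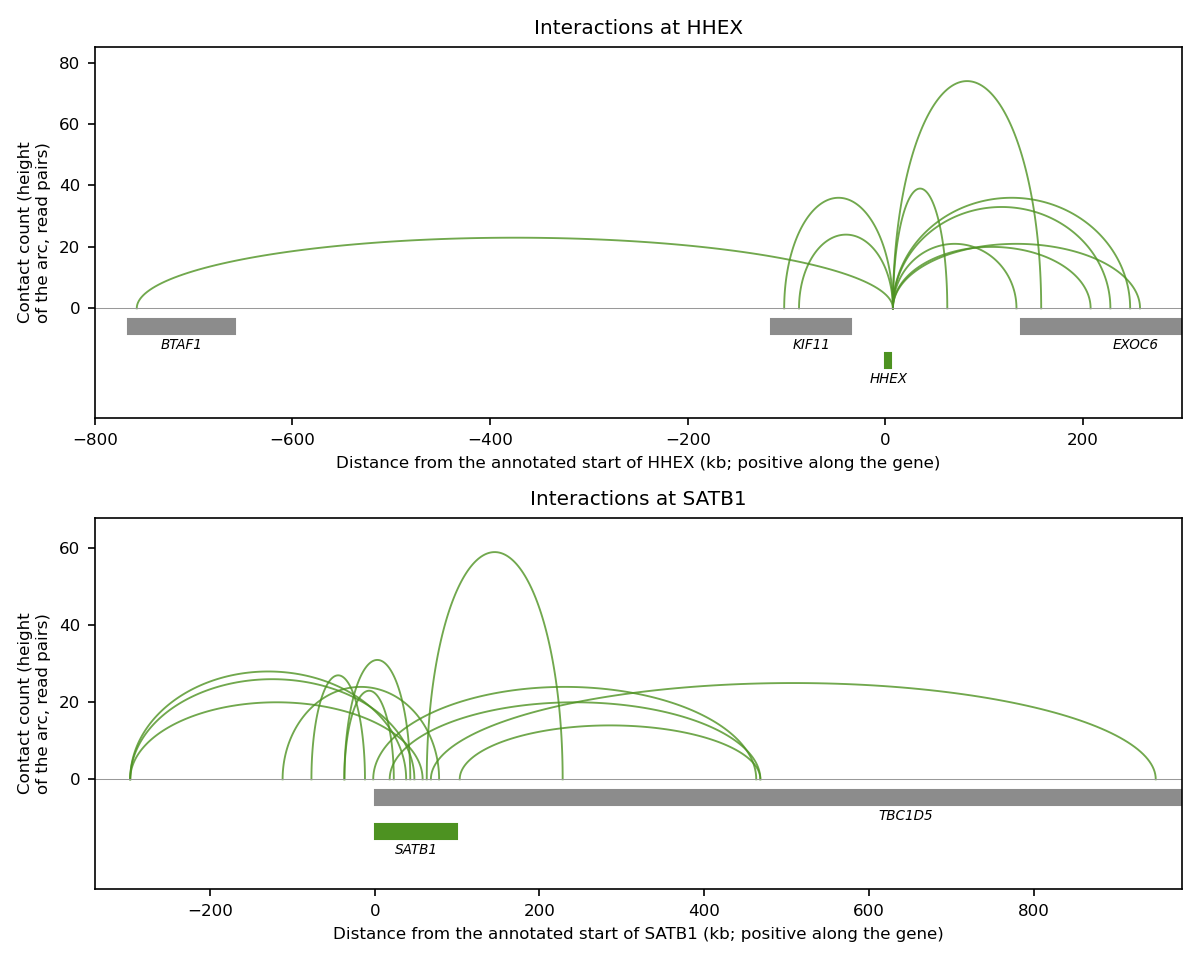
Interactions at HHEX (top) and SATB1 (bottom), drawn as arcs whose height is the contact count (read pairs), against the distance in kb from the annotated gene start in the direction of transcription. Boxes are genes. All 10 arcs of HHEX share an end, whereas the 12 arcs of SATB1 start from 12 places in and around the gene and meet in 8 places outside.

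CUX2 and CUX1 encode CUT homeobox proteins, and CUX1 is known as a tumor suppressor in myeloid leukemia. CUX2 had 6 interactions with contact counts from 24 to 47, and none lay within 10 kb of a transcript start. The strongest joined chr12:111355001-111360000, 4.4 kb past the end of the gene, with chr12:111480001-111485000 in ATXN2 (contact count 47; 34.5 to 62.5; 125 kb; P value 5.06e-30). The same bin of ATXN2, without a motif, received 3 of the 6. A further contact, with chr12:110775001-110780000 near PPP1CC at 560 kb, showed 39 read pairs (27.7 to 53.3; P value 1.24e-21), and the longest ran 2075 kb to ACACB with a contact count of 33. By P value, the 5 leading interactions of the members were those of HHEX, SATB1 and PBX3 and these top contacts of CUX2.

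CUX1, the longest member with 468 kb, had 4 interactions, and 3 had both ends inside the gene. These 3 met in the intron bin chr7:102045001-102050000, and the strongest had a contact count of 40 (28.6 to 54.5) at 50 kb. The last ran 2845 kb to KPNA7 with a contact count of 28 (18.6 to 40.5). None of the bins of CUX1 interactions held an HLF motif. CUX1 had fewer contacts than HHEX or SATB1, whereas members longer than 100 kb together held 65 of the 86 interactions (75.6%). The part of length in the number of contacts was not tested.

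HLX, a homeobox factor of blood and gut development, had 2 interactions, from neighboring bins upstream of the gene. The bin chr1:220865001-220870000, 9.4 kb upstream, contacted chr1:221410001-221415000 at 545 kb with a contact count of 24 (15.4 to 35.7). This far end held 3 motifs, 2 of them TTACGTAA. The other contact spanned 1015 kb and ended nearest to DUSP10.

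Over all members, a motif lay in at least 1 bin of 52 of the 86 interactions (60.5%; Wilson 95% interval, 49.9 to 70.1%), against 66.8% of the whole list. In the bins 25 kb outside the same pairs the shares were 40.7% (30.9 to 51.3%) and 48.4%. In both, the value of the list lies inside the members' interval. Of the 73 interactions with only 1 end at a member, the member end held a motif in 24.7% (16.2 to 35.6%) and the far end in 47.9% (36.9 to 59.2%), against 41.5% over all ends of the list. The far end took part in at least 5 interactions in 38.4%, against 38.8% over all ends. These interactions share bins, and the HHEX bin without a motif counts 10 times among them. Per distinct bin, 14 of the 49 member ends (28.6%; 17.8 to 42.4%) and 30 of the 64 far ends (46.9%; 35.2 to 58.9%) held a motif, against 31.5% of all anchor bins. The last value is an unlike measure for the far ends. Of all anchor bins 78.0% took part in 1 interaction, whereas far ends enter through a contact, which favors bins with many interactions. The 41.5% over all ends lies inside the far-end interval. The motif occurred in 18.1% of all bins in the members' windows, against 30.6% in the genome. Without PBX3, HHEX and SATB1, a choice made after seeing the data, the shares were 25.9% (13.2 to 44.7%) at the member end and 63.0% (44.2 to 78.5%) at the far end.

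In RefSeq promoters (GRCh38.p14, 250 bases before to 50 after the start), the motif occurred in 355 of 35116 (1.01%). Of the 53 promoters that matched 33 member symbols, 1 held it, that of HOXA9. No listed interaction lay within 10 kb of a transcript start of HOXA9.

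The same count was made for 17 genes related to the members, among them regulators of HOX genes and further homeobox genes. Of these 11 had an interaction (64.7%; 41.3 to 82.7%), close to the 64.5% of all genes. AFF1 had 49 (contact counts 13 to 57), MLLT3 34 (14 to 53) and DOT1L 15 (14 to 48), which are partners of KMT2A in leukemia or, for DOT1L, the H3K79 methyltransferase that acts with them. These 3 of the 17 had at least 10 interactions, against 10.1% of all genes. They are 206, 281 and 68.6 kb long, and within 10 kb of transcript starts they had 26, 8 and 5. MEN1, which encodes menin, had 5, and KMT2A and NUP98 had 3 each. IRX2 had 2, and CDX1, CDX2, TGIF2 and IRX5 had 1 each. CDX4, IRX1, IRX3, IRX4, IRX6 and MKX had none.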

How the data were processed

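HiChIP was measured in 1 condition with 2 replicates, and a single interaction list was deposited. The authors trimmed the reads with TrimGalore 0.6.6, merged the replicates, aligned with BWA-MEM to hg38, used pairtools parse without deduplication, called reference peaks with MACS2 and called interactions with FitHiChIP (5-kb bins, 50 kb to 3 Mb, q-value under 0.01), in its mode that merges neighboring contacts. The version of FitHiChIP is not given in the sources used here. The deposited contact counts are raw counts of read pairs, and the deposited sumCC is a count summed over a merged group. FitHiChIP gave each deposited p-value and q-value. A deposited fraction, the share of a merged group's bin pairs that were significant, was not needed.

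Members, gene lists and the motif search were chosen with earlier results of these data known. All 52 members were given by number, each HOX cluster with every interaction, and every other member that had an interaction with its strongest, along with the 5 leading interactions by contact count, sumCC and P value. Far ends were named by protein-coding starts in the bin, else by overlapping genes, else by the nearest start. Genes came from GENCODE release 44, and 0 bins lay past a chromosome end. The near-distance median covers interactions within 5% of the distance. Intervals are exact Poisson for contact counts, Wilson for shares and binomial order statistics for medians. All cover counting error at most and take the counted units as independent. Kept duplicate pairs and shared bins depart from this, so the intervals may be too narrow. A related gene and a sequence are not reported here. No test was made, since there is 1 merged sample. Overlap, motif search and intervals were tested on simulated data. Alternatives were stricter q-values, contact counts from 20 upward, a distance limit of 1 Mb, other windows, merged bin ranges, members of at most 100 kb, sumCC and a wider motif. The software was pysam 0.24.0, matplotlib 3.10.9, pandas 2.3.3, numpy 2.4.6 and scipy 1.17.1 under Python 3.11.15.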

Additional observations from a re-analysis of the deposited data

How the results depend on the processing

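The replicates were merged before calling, so no value without either of them could be computed. No paired analysis was possible because the deposited list holds no value per replicate. Of 58 recomputed values of the main results, 44 moved by less than their interval or by less than 1.5 times. With windows at transcript starts the number of interactions went from 86 to 46 and the share with a motif from 60.5% to 71.7%. Without the 7 members longer than 100 kb, they were 21 and 71.4%, and the median distance went from 247.5 to 405 kb. Members with an interaction fell from 29 to 14 with a q-value under 1e-05 and also to 14 with a contact count of at least 20. With the gene body alone they were 17. No share of all genes is given for these settings, so the lower counts cannot be read as particular to the members. With a q-value under 1e-05 the median contact count was 27. With the wider motif TTAYRTAA the share was 73.3%. The whole list is not given with this motif, so 73.3% cannot be set beside the share of the list above. As alternatives chosen after seeing the data, the number of interactions was 52 without PBX3 and 30 without PBX3, HHEX and SATB1, and without these 3 the median contact count was 21 and the median distance 440 kb. Of the 5 HOX contacts, 3 were left with a q-value under 0.001, 1 with a q-value under 1e-05 and 1 with a contact count of at least 20, and with the gene body alone they reached 8 HOX genes in place of 16. With contact counts of 12 to 28, the HOX contacts rest on few read pairs. Here too, no share of all genes or of the whole list is given for the same settings.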
